A study of Homo sapiens with 2 samples.

Results

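JUNB peaks were described near 10 genes of MAP kinase feedback: the dual-specificity phosphatases DUSP1, DUSP4, DUSP5, DUSP6 and DUSP10, the Sprouty genes SPRY1, SPRY2 and SPRY4, and the Sprouty-related genes SPRED1 and SPRED2. They are 10 of 19974 protein-coding genes of chromosomes 1 to 22 and X. A peak was counted for a gene when its summit, the position of highest signal, lay within 50 kb of the gene span in the RefSeq annotation of GRCh38. This gave 37 of 32550 untreated peaks and 28 of 25739 etoposide peaks. A peak was called shared when it overlapped a peak of the other list by at least 1 bp, and overlapping peaks of the lists were joined into 1 region.

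The cells were IMR-90, human lung fibroblasts. CUT&RUN was done with an antibody to JUNB: a nuclease tethered to the bound antibody cuts the DNA around it, and the fragments set free are sequenced. One library came from untreated cells and one from cells treated with etoposide, an inhibitor of topoisomerase II that causes DNA breaks, with a dose and a duration that the labels do not state. With 1 library per condition, differences between the lists have no replicate check and were not tested, and a peak missing from a list lay under its threshold, which is not the same as no binding. Peaks do not measure expression, so neither the fibroblast label nor the activity of these genes could be checked.

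MAP kinase cascades carry signals from growth factors and stress through RAS and a chain of kinases to ERK, JNK and p38, and AP-1, the dimeric factor that JUNB belongs to, is one of their nuclear endpoints. Dual-specificity phosphatases remove the activating phosphates from MAP kinases, while Sprouty and SPRED proteins act further up, between the receptors and RAF. Many of these genes are themselves switched on by MAP kinase signals, which makes a negative feedback loop.

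JUNB peaks lay near most of these genes, with the highest density at DUSP1. An untreated peak was found near 9 of the 10 genes, where 72.0% of all protein-coding genes had one in the same window. An etoposide peak was found near 8 of 10, against 62.6% of all genes, and a shared peak near 5 of 10 (DUSP1, DUSP4, DUSP5, SPRY1 and SPRED2), against 51.1%. SPRY2 alone had no peak of either list, as did 23.9% of all genes. DUSP1 and SPRED2 together held 17 of the 37 untreated and 14 of the 28 etoposide peaks, SPRED2 in the longest window of the 10, 225.4 kb. Per 100 kb of window, the untreated peaks came to 6.79 at DUSP1, 4.44 at SPRED2, 4.40 at DUSP5, 2.62 at SPRY4 and 2.55 at DUSP4, and to 1.42 to 1.90 at DUSP6, SPRY1, SPRED1 and DUSP10. The etoposide peaks came to 7.76 at DUSP1, 3.74 at SPRY1, 2.66 at SPRED2, 2.55 at DUSP4, 1.90 at DUSP6, 1.42 at DUSP10, 0.978 at SPRED1 and 0.880 at DUSP5. DUSP1 was thus the densest in both lists, while SPRED2 was close to DUSP5 in the untreated list and below SPRY1 in the etoposide list. These densities count peaks and not places. At DUSP1 and at SPRY1, 2 etoposide peaks fell in 1 shared region that held 1 untreated peak. At DUSP4, 2 untreated peaks fell in 1 shared region that held 1 etoposide peak.

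The share of peaks found in both lists was set beside that over all peaks. Of the 37 untreated peaks 16 were shared, 43.2% (exact 95% binomial interval, counting error only, 27.1% to 60.5%), where 51.0% of all untreated peaks were. Of the 28 etoposide peaks 17 were shared, 60.7% (40.6% to 78.5%), where 64.8% of all etoposide peaks were. Both intervals hold the value over all peaks. They treat peaks as independent, though DUSP1 and SPRED2 held 17 of the 37 and 14 of the 28, so they may be too narrow. Joined, the peaks made 47 regions, of which 15 were shared, 21 were in the untreated list only and 11 in the etoposide list only. Over both whole lists there were 41170 regions. Of those, 16167 were shared, 15940 were in the untreated list only and 9063 in the etoposide list only.

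**Figure D1:**
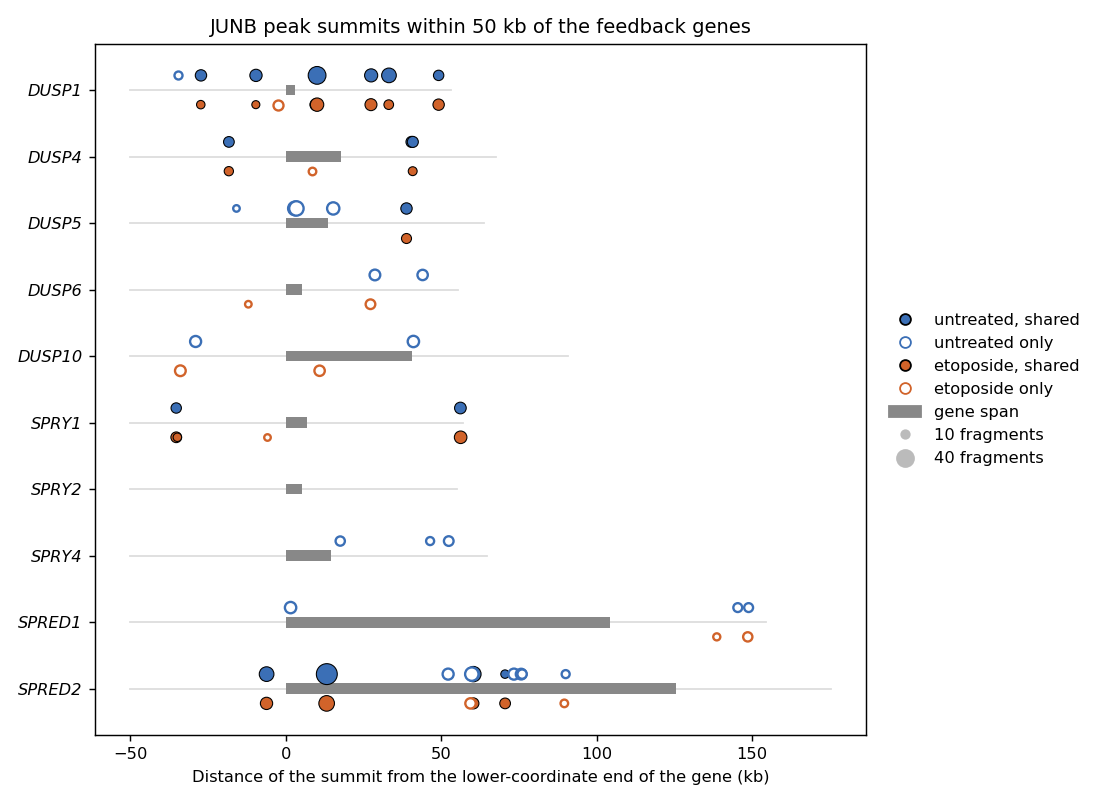
Peak summits within 50 kb of each gene, as the distance in kb from the gene's end of lower coordinate. Each circle is a peak, filled where shared and open where found in 1 list, with its area in proportion to the fragments at the summit, untreated above and etoposide below the line. DUSP1 has 6 shared regions spread on both sides of a short gene, SPRED2 has 9 of 10 untreated and 5 of 6 etoposide peaks inside the gene, and SPRY2 has none.

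**Figure D2:**
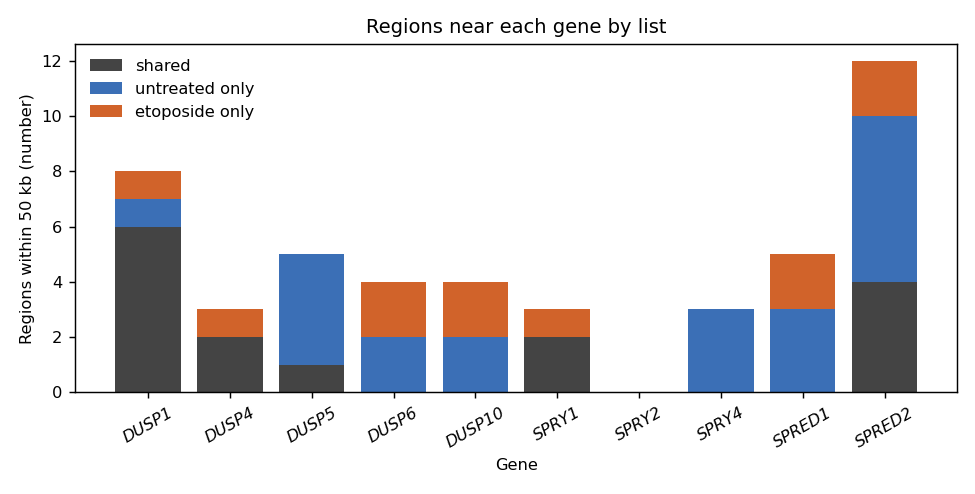
Number of regions within 50 kb of each gene, split into shared regions, regions of the untreated list and regions of the etoposide list. DUSP6, DUSP10, SPRY4 and SPRED1 have regions and none of them shared. Of all protein-coding genes, 51.1% had a shared peak in the same window and 23.9% had no peak of either list, and the rest had peaks but none shared.

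Among the phosphatases, DUSP1, a nuclear enzyme induced early by stress and growth factors that acts on p38, JNK and ERK, had the densest surroundings. It had 7 untreated and 8 etoposide peaks, and the medians over all genes of the densities given above were 0.991 and 0.805 per 100 kb. Only 41 of the 19974 genes had a higher untreated density and 2 a higher etoposide density. The etoposide count includes 2 peaks in 1 shared region that held 1 untreated peak. Its density and place among the genes therefore depend on that split, and the higher etoposide number does not show more places. By number of peaks, which does not allow for the length of the gene, 878 and 352 genes had more.

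The strongest of the 6 shared regions at DUSP1 lay upstream of the gene, which is on chromosome 5, inside the uncharacterised gene LOC105377730. The untreated peak ran from 172777628 to 172778584. Its summit was 6.96 kb from the start of DUSP1, with 44 fragments and an authors' -log10 q of 21.9, rank 2520. The etoposide list split the place into 2 peaks, the stronger with its summit 6 bp away, 25 fragments and a -log10 q of 14.03, rank 3765. This was the best ranked place near any of the phosphatases in either list.

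The other 5 shared regions of DUSP1 lay at 24.4, 30.1 and 46.1 kb upstream and at 9.60 and 27.3 kb downstream, by their untreated summits. The upstream ones had 24, 30 and 15 untreated fragments and 20, 13 and 18 etoposide fragments, in that order. The downstream ones had 21 and 18 untreated fragments and 9 and 10 in the etoposide library. The farthest upstream region was thus the one of the 6 with more fragments after etoposide, and it is nearer to the gene ERGIC1 than to DUSP1. No summit of either list lay inside DUSP1, and the nearest, in the etoposide list only, was 2.38 kb past its end, with 14 fragments.

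The promoter of DUSP1 is shown because the surroundings of this gene were the densest. No listed peak touched it, which is the usual case: untreated peaks overlapped 11.0% and etoposide peaks 3.13% of all promoter windows. RefSeq promoter windows, from 250 bases before to 50 after a transcript start, were at hand for 8 of the 10 genes, 13 windows in all. They were searched on both strands for TGANTCA, the AP-1 site, for TGACGTCA, the cyclic AMP response element that AP-1 dimers with ATF partners can also bind, and for the CArG box of serum response factor. No match to one of these patterns is itself a match to another. The window of DUSP1 (minus strand, chr5:172771146-172771445, GRCh38.p14) holds 1 TGACGTCA, in capitals, a word found in 2.26% of 22132 promoter windows of protein-coding genes:
DUSP1: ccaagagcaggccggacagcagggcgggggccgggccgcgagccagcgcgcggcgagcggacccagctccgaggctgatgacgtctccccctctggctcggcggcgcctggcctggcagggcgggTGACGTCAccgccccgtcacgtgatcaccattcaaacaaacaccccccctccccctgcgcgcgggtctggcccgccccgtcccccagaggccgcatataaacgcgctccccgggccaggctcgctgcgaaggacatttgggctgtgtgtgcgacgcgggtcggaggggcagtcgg
The nearest listed peaks were 6307 bp away in the untreated and 5492 bp in the etoposide list, measured from that word.

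DUSP4, another nuclear phosphatase, lies on chromosome 8 and had 3 peaks in each list. Its best shared region by untreated -log10 q was 23.2 kb beyond the end of higher coordinate (untreated peak 29373772 to 29374177), with 17 fragments there and 11 in the etoposide library. The etoposide peak overlapped 2 untreated peaks, of 17 fragments each. A further shared region 18.3 kb from the end of lower coordinate had 16 and 12 fragments. The peak inside the gene was in the etoposide list only, with 8 fragments.

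DUSP5, a nuclear phosphatase selective for ERK, was the phosphatase whose peaks were mostly in the untreated list. Of its 5 untreated peaks on chromosome 10, 4 had no counterpart, and no peak was in the etoposide list only. Among all untreated-only peaks near the 10 genes, the strongest lay 1.63 kb beyond its end of higher coordinate at 110512652 to 110513242 (21 fragments, -log10 q 14.5, rank 6326), and the next inside it at 110501181 to 110501398 (29 fragments, -log10 q 11.9, rank 9264). A second peak inside the gene, at 110500784 to 110500985, had 26 fragments. For these 3 the nearest etoposide peak was 23085 bp or farther away. Those inside the gene lay on high local backgrounds, 4.26 and 4.46 fragments, where the median over all untreated peaks was 1.27. Their authors' folds, taken as summit signal over local background, were 5.70 and 4.94, under the list median of 6.71. The peak beyond the end of higher coordinate had a background of 1.45 and a fold of 8.96. The shared region, 24.9 kb beyond the same end at 110536115 to 110536616, had 18 untreated and 14 etoposide fragments with summits 16 bp apart.

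DUSP6, the cytoplasmic phosphatase selective for ERK, and DUSP10, which acts on JNK and p38, had 2 peaks in each list and none shared. Both DUSP6 peaks of the untreated list (16 and 15 fragments) lay upstream inside POC1B-DUSP6, a gene model that reads through from the neighbouring POC1B, and so did 1 of the 2 etoposide peaks (13 fragments). The other etoposide peak, 12.1 kb downstream, had 6 fragments. The etoposide-only peaks at DUSP10 were the strongest of that kind near the 10 genes, with 16 fragments 33.9 kb downstream (221667475 to 221667663, -log10 q 8.10) and 15 inside the gene (221712197 to 221712386, -log10 q 8.01). The next was the etoposide-only peak past the end of DUSP1 (172765632 to 172765820), with a -log10 q of 7.59.

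Measured from the outer start of each gene span, DUSP10 had the only summit within 1 kb among the 10 genes, and summits near an internal start of SPRED2 are described with that gene. For DUSP4 and DUSP5, whose strand the tables used here do not give, both ends were examined. The DUSP10 peak, in the untreated list only, spanned 221741971 to 221742662 on chromosome 1 with its summit 0.374 kb upstream, 18 fragments on a local background of 1.96, and a -log10 q of 9.18 (rank 14719). It covered the whole RefSeq promoter window, which is shown for that reason and holds none of the 3 patterns (minus strand, chr1:221742040-221742339, GRCh38.p14):
DUSP10: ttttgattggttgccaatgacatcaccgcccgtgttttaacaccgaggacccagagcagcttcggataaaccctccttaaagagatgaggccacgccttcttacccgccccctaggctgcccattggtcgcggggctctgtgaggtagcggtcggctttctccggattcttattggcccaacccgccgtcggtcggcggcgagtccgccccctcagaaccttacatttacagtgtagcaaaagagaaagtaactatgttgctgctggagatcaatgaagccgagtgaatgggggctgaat
The nearest etoposide peak was 29584 bp away. Of the 13 promoter windows, untreated peaks overlapped 2 and etoposide peaks 0, where they overlapped 11.0% and 3.13% of all windows.

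Of the Sprouty genes, which block the passage of receptor signals to RAS and RAF, SPRY1 had 2 shared regions and no untreated-only one. The stronger by untreated -log10 q lay 49.2 kb downstream on chromosome 4 at 123452511 to 123453097, just inside the window, with 19 untreated and 22 etoposide fragments. The other, 35.3 kb upstream, had 15 and 16. Both had more fragments in the etoposide library, where over all 16167 shared regions 74.2% had fewer. The etoposide list split the upstream region into 2 peaks, the weaker with 10 fragments. A weak etoposide-only peak of 6 fragments lay 5.93 kb upstream.

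SPRY4 had 3 peaks, all in the untreated list only and all upstream within the antisense transcript SPRY4-AS1. They held 12 fragments at 2.91 kb, 9 at 31.8 kb and 13 at 37.8 kb from the gene, and the etoposide peak nearest to the gene was 60.2 kb from it. SPRY2 had its nearest peaks at 129 kb in the untreated and 131 kb in the etoposide list. Both distances are far outside the window, which holds no other protein-coding gene.

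The SPRED proteins bring neurofibromin, a protein that switches RAS off, to the membrane. SPRED2, a gene of 125 kb on chromosome 2, had 10 untreated and 6 etoposide peaks, more untreated peaks than any of the other 9 genes, and 9 and 5 of them lay inside it. Only 375 genes had more untreated and 692 more etoposide peaks. Its densities per 100 kb were exceeded by 799 and 1700 genes.

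The strongest JUNB peak near any of the 10 genes was a shared one inside SPRED2, at 65320187 to 65320745 in the untreated list. It had 61 fragments on a background of 2.95 and an authors' -log10 q of 52.3, which put it at rank 141 of 32550, in the first 0.433% of the list. Its etoposide counterpart at 65320127 to 65320722 had 34 fragments on a background of 1.91, a -log10 q of 26.4 and rank 613 of 25739, in the first 2.38%. The summits were 52 bp apart, 13.2 kb from the end of the gene and 112 kb from its start.

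The other 3 shared regions of SPRED2 ranged from 10 to 33 untreated fragments. One past the end of the gene had 30 untreated and 21 etoposide fragments. Of those inside, the one at 65367339 to 65367821 had 33 and 17, and the one at 65377579 to 65377780 had 10 and 16. The last was the only shared region of SPRED2 with more fragments in the etoposide library.

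RefSeq gives SPRED2 a further start inside the gene, and 1 of the 6 untreated-only peaks lay there, next after the DUSP5 pair in strength among untreated-only peaks near the 10 genes (65366836 to 65367076, 25 fragments, -log10 q 10.3). It overlapped the RefSeq promoter window of that start (minus strand, chr2:65366729-65367028, GRCh38.p14), shown here with its 2 matches to TGANTCA in capitals:
SPRED2 internal start: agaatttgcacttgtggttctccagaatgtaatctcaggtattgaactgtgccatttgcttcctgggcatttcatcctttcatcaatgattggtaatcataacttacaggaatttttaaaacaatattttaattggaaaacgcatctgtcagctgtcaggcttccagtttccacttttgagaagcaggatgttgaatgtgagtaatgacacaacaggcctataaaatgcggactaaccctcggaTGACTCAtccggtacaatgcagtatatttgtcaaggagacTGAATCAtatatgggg
The word is found in 6.15% of all promoter windows, in 10.5% of those overlapped by an untreated peak and in 20.8% of those overlapped by an etoposide peak. Neither match lay inside a listed peak. They fell in the gap of 135 bp between this untreated peak and an etoposide-only peak at 65366512 to 65366700 (15 fragments), 51 and 91 bp from the first and 77 and 37 bp from the second. The summit of that etoposide-only peak also lay within 1 kb of the internal start. So did both summits of the shared region with the untreated peak at 65367339 to 65367821. That region had 33 untreated and 17 etoposide fragments, with -log10 q of 17.62 and 8.748, so this start had signal near it in both lists. The upstream start of SPRED2, as well as the starts of SPRED1, DUSP6 and the Sprouty genes, had no match to any of the 3 patterns in their windows, which says nothing of the sequence outside them.

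SPRED1 had 3 untreated and 2 etoposide peaks and none shared. One untreated peak lay inside the gene 1.53 kb from its start (38254259 to 38254519 on chromosome 15, 18 fragments, rank 20818), 124024 bp from the nearest etoposide peak. The others lay 34.2 to 44.5 kb downstream, with 7 to 12 fragments. There an untreated peak at 38401679 to 38401890 and an etoposide peak at 38401102 to 38401512 were separated by 166 bp.

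Such near misses bear on what counts as found in 1 list. Of the 21 untreated-only peaks near the 10 genes 3 lay within 500 bp of an etoposide peak, where 14.3% of all untreated-only peaks did, and of the 11 etoposide-only peaks 3 lay within 500 bp of an untreated one, where 15.6% did. They form 3 pairs, 2 in SPRED2 and 1 downstream of SPRED1, and counting them as shared would bring the genes with a shared peak to 6.

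Shared peaks near these genes had higher medians than single-list ones, as did those of the whole lists. In the untreated list the shared ones had a median of 18.5 fragments (10 to 61) and the untreated-only ones 16.0 (6 to 29), against 19.0 and 12.0 over all peaks. In the etoposide list the medians were 16.0 (9 to 34) and 12.0 (6 to 16), against 14 and 10 over all peaks. Region by region, 11 of the 15 shared regions (73.3%) had fewer fragments in the etoposide library, near the 74.2% of all shared regions. The local background also differed, with medians of 1.27 and 0.907 fragments over all peaks, and its part in these numbers was not tested. A lower number therefore does not show less binding at a place, nor a higher number more.

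**Figure D3:**
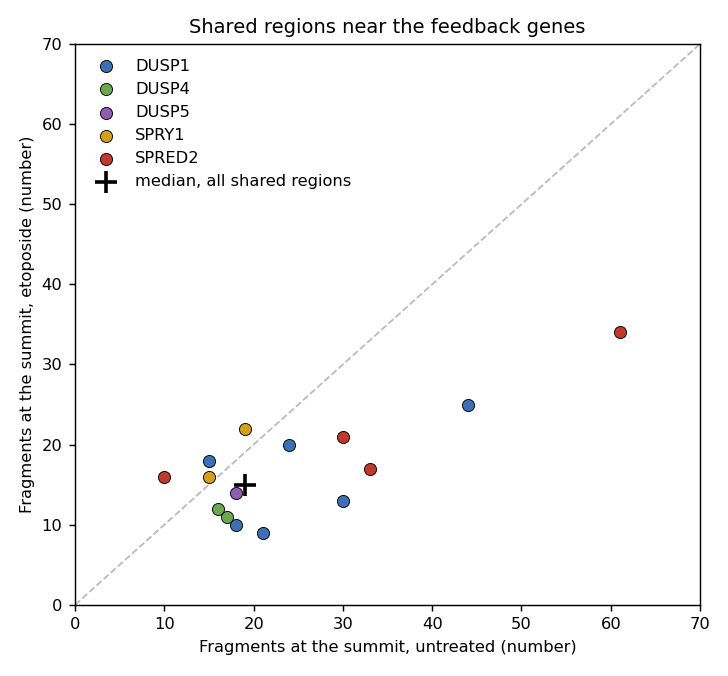
Fragments at the summit in the untreated (horizontal) and etoposide (vertical) library for the 15 shared regions, coloured by gene, with equal numbers on the dashed line and a cross at the medians of all shared regions, 19.0 and 15.0. The region inside SPRED2 with 61 and 34 fragments stands apart, and the 4 points above the line belong to DUSP1, SPRY1 (2 points) and SPRED2.

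The rest of the pathway was described with 72 further genes in 7 roles. Of these 64 had an untreated peak (88.9%), 58 an etoposide peak (80.6%) and 56 a shared peak (77.8%, exact interval 66.4% to 86.7%), against the 72.0%, 62.6% and 51.1% of all genes given above. The 10 feedback genes, with 5 of 10 near a shared peak (exact interval 18.7% to 81.3%), had a wide interval that overlapped that of the other pathway genes. These counts do not allow for the length of a gene, which widens its window.

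Among the other feedback genes, 7 of 10 inhibitors of receptors, RAS or RAF had a shared peak, led by RASAL2 and NF1, which speed up the switching off of RAS, with 10 and 7 shared regions, and by ERRFI1, an inhibitor of the EGF receptor, with 5. Of 7 other dual-specificity phosphatases 5 did, led by DUSP14 with 3 shared regions and by DUSP2 and DUSP3 with 2 each. DUSP8, SPRY3 and PEBP1 had no peak in either list, as for SPRY2. These orders go by number of regions and do not allow for window length. The windows were 484.7 kb at RASAL2, 382.7 kb at NF1 and 114.6 kb at ERRFI1.

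Of the forward parts of the pathway, all 6 growth factor receptors had a shared peak, with 9 shared regions at EGFR, 7 at IGF1R and 4 at FGFR1. Among 11 adaptors and RAS genes 9 did, with 3 regions each at GAB1 and SOS1, and 2 each at GRB2 and SHC1. HRAS had no peak. Of the 12 ERK cascade kinases 8 did, among them MAPK7 with 5 shared regions and KSR1, MAP2K2 and MAP2K5 with 2 each, and of the 12 JNK and p38 kinases 9 did, led by MAP3K5 with 6, MAP2K6 with 4 and MAPK8 with 3. MAPK11, a p38 kinase, had no peak. Among 14 immediate-early and ERK-responsive targets 12 had a shared peak, led by PHLDA1 with 4 and by EGR3, IER2 and IER3 with 3 each, while EGR1 had no peak in either list. Window length differed here too, with 416.0 kb at IGF1R and 336.0 kb at MAP3K5 against 105.8 kb at MAPK7.

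**Figure D4:**
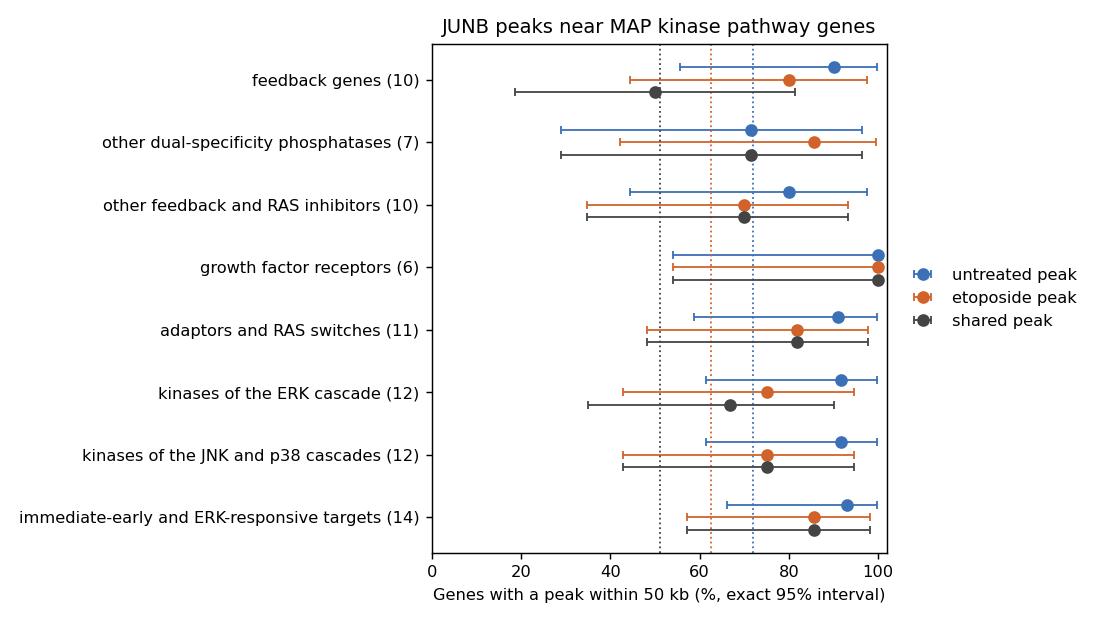
Percent of genes of each role, numbers in brackets, with an untreated, an etoposide and a shared peak within 50 kb, with exact 95% intervals that cover counting error only. Dotted lines mark the values over all protein-coding genes, 72.0%, 62.6% and 51.1%, and the intervals of the feedback genes hold all of them.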

How the data were processed

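The data were the authors' 2 deposited peak lists, 1 per library. Bowtie2, MACS2 and the builds hg38 and mm10 are named in the submitters' processing notes, without roles, versions or settings. Contig names in the files are human ones of GRCh38. In this narrowPeak layout the authors' fold per peak is taken as a ratio of summit signal to local background, beside a deposited -log10 p and -log10 q, and the deposited score was not used further. The control library and caller settings are not given in the sources used here. These are the authors' values and were used only to describe and rank peaks within a list (1 is the highest -log10 q). The last column, the summit offset, gave positions, counted from 1.

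Peaks of chromosomes 1 to 22 and X were kept. Fragments at the summit were recovered from fold and p with a pseudocount of 1, as the whole number that returned the deposited -log10 p within 0.001, in 100% of peaks of both lists (median 15 untreated, 13 etoposide). Depth is otherwise unknown. The recovery step was tested on simulated data made with the same formula. That checks the calculation and not whether the authors' caller used this formula. Gene spans and promoters came from RefSeq, GRCh38 patch 14. Distances are from gene span ends. No peak sequences were used here. The genes, pathway list and windows were chosen with earlier results of these data known. All 10 genes are named. Peaks given in full are the best shared region of a gene by untreated -log10 q, the 3 highest of each single-list kind and any within 1 kb of a start, and others were added after their values were seen. Pathway genes named are those with the most shared regions in a role, ties included, and those without a peak. The values of 1 pathway gene are not reported here. Python 3.11.15, pandas 2.3.3 and scipy 1.17.1 were used. No test of treatment was run.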

Additional observations from a re-analysis of the deposited data

How the results depend on the processing

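Of the settings tried, the one joining peaks at most 500 bp apart was chosen after the data had been seen, and it moved the shared percentages to 51.4% and 71.4%, inside the intervals given above. The distance set the counts. Within 10 kb there were 18 untreated and 13 etoposide peaks and 2 genes with a shared peak, and within 100 kb there were 64 and 46 peaks and 7 such genes. Requiring overlap of 50% of both peaks lowered the shared percentages to 16.2% and 21.4%, with a shared peak at 3 genes. Among the 10000 strongest peaks of each list 9 untreated and 9 etoposide peaks were left, with a shared peak at 3 genes. Values over all genes and all peaks are given here only for 50 kb and 1 bp. These shifts therefore cannot be set beside those of the whole lists and do not show a trait of the 10 genes. Summits at most 200 bp apart, a -log10 q of at least 5 and the nearest gene alone moved no count by over 1.5 times and no percentage out of its interval. With 1 library per condition no library could be left out, and the number of fragments at a summit limits what a peak of 6 to 12 fragments can show.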
